A study of Mus musculus with 9 samples.

Results

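The labial mucosa of mice labelled Tac111 was compared with that of mice labelled Tac146, using the 6 libraries of these strains out of 9 in the series. They were chosen by strain label, which gave Tac111 replicates 1, 2 and 3 and Tac146 replicates 2, 3 and 4. RNA came from biopsies of the inner lip of mice that had been infected beforehand. The labels say that the strains carry different mutations, but which ones, and the infectious agent, its dose, the time after infection and the age of the mice, are not stated there. The remaining strain, labelled B6, is cited below for its levels only. Nothing in the labels ties each library to its own animal, and p-values therefore describe the spread among these libraries, which may be technical.

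All 6 libraries carry the label T cells, but they had the transcripts of whole mucosa. The oral keratins Krt4, Krt13, Krt5 and Krt14 took 6.18 to 8.67% of the counts, and the muscle genes Acta1, Ckm and Myh4 took 0.951 to 1.88%. Cd3d, Cd3e, Cd3g and Cd8a, which encode defining surface chains of T cells, had 0 counts in Tac111. In Tac146 their summed counts were 3, 21, 60 and 5. Trac, the constant segment of the T cell receptor alpha chain, had 8 counts in Tac111 and 7 in Tac146, and Trbc2, a beta chain segment, had 6.69 ± 1.08 and 5.95 ± 1.00 CPM (SD, n = 3). CPM is a gene's count scaled to the size of its library, and values after ± are the SD of 3 libraries throughout. Ms4a1 and Igkc, which B lineage cells express, had 0 counts in both strains. Ptprc, which encodes the leukocyte protein CD45, took 4.34e-04 to 0.00129% of the counts. In tissue RNA of this kind, fewer cells of a type and less RNA per cell cannot be told apart.

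Innate lymphoid cells (ILC) are lymphocytes without rearranged antigen receptors. Group 1 cells, with natural killer (NK) cells, are known for interferon gamma and granzymes, group 2 cells for interleukins 5 and 13, and group 3 cells for interleukin 22. Their development and survival depend on receptors that contain the common gamma chain, encoded by Il2rg, which pairs with other chains to bind interleukins such as 7 and 15. In epithelium, interleukins 4 and 13 act through STAT6 on genes such as chitinase-like proteins, and interferon gamma induces genes of antigen presentation.

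The difference was large and mostly in the direction of lower levels in Tac111. Of 16334 genes tested with edgeR, a count model across all genes, 641 (3.92%) had an adjusted p under 0.05 and are termed called, 127 (0.778%) higher and 514 (3.15%) lower in Tac111. Over 2-fold, 306 (1.87%) were called, 58 (0.355%) on the higher and 248 (1.52%) on the lower side. For 35.6% of tested genes, the libraries of one strain all lay above those of the other, 18.4% lower and 17.2% higher in Tac111. The median log2 fold change of Tac111 over Tac146 was 0.02, and 47.9% of the genes lay below 0. Every fold change below has this direction. The percentages of all genes given here are the background for the share called in each list below. The count of called genes was 249, 215 and 216 without Tac111 replicates 1, 2 and 3, and 945, 271 and 694 without Tac146 replicates 2, 3 and 4. The first principal component, with 54.5% of the variance, put the Tac111 libraries at -40.3 to -30.6 and the Tac146 libraries at 24.5 to 40.6. On the second, with 19.3%, Tac146 replicate 4 lay at 32.5, and -24.4 to 15.2 held the other 5.

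**Figure D1:**
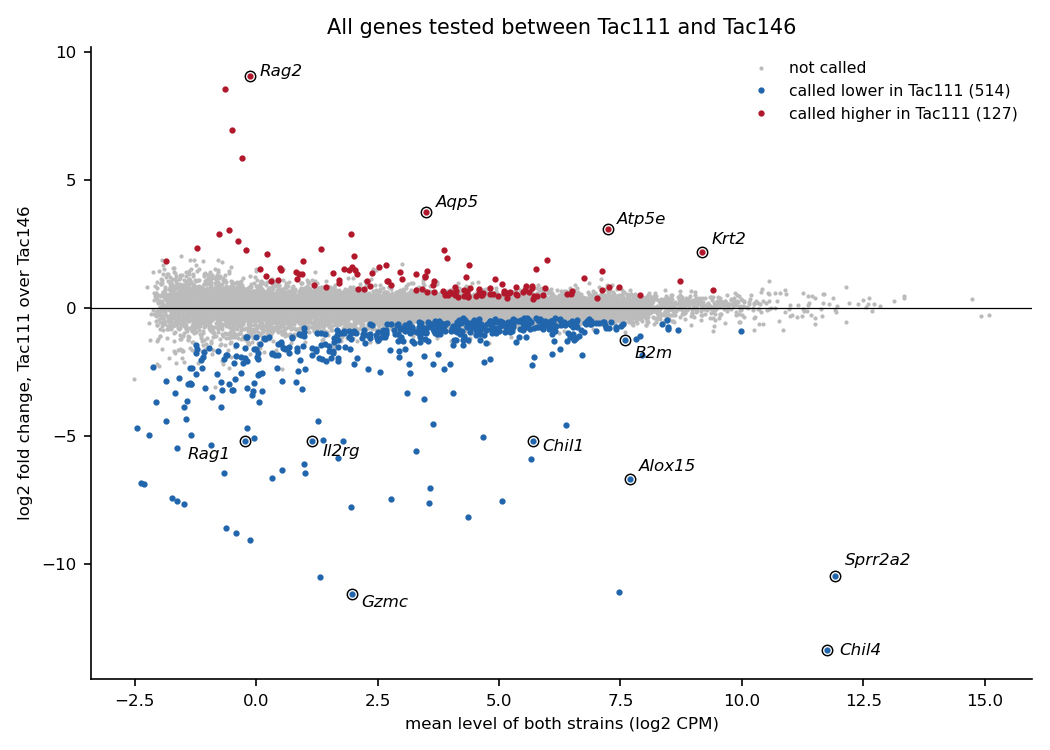
Log2 fold change of Tac111 over Tac146 (y axis) against the mean level of both strains (x axis, log2 CPM) for the 16334 genes tested, each a point, with the 514 called lower in blue, the 127 called higher in red and the others in grey. The circled Chil4, Sprr2a2 and Alox15 combine a high level with a large fall, while Rag2 and Aqp5 lie on the higher side. The points of genes with 0 counts in 1 strain, such as Gzmc and Rag2, depend on the prior count of the fit.

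Sequences are shown here for pairs of strongly lowered epithelial genes, because these relatives fell together and the upstream bases of each pair share a motif. Each line is the 250 bases before the RefSeq transcription start on the coding strand, with the build GRCm38.p6. Sprr2a2 and Sprr2a3 encode small proline-rich proteins of the cell envelope, and Chil4 and Chil3 encode chitinase-like proteins. The windows are chr3:92250397-92250646 (plus strand) for Sprr2a2, chr3:92285054-92285303 (plus) for Sprr2a3, chr3:106219480-106219729 (minus) for Chil4 and chr3:106167565-106167814 (minus) for Chil3. Capitals mark matches to the STAT6 motif (TTC and GAA with any 4 bases between) in the Sprr2a genes and to the gamma-activated motif TTCNNNGAA in Sprr2a3, Chil4 and Chil3. The genes shown were chosen after their values were seen. The windows of Sprr2b, Sprr2d, Sprr2e, Sprr2f, Sprr2i and Chil1 held no match to either motif. These genes were lowered too, with log2 fold changes from -7.77 for Sprr2e to -5.17 for Chil1.
Sprr2a2: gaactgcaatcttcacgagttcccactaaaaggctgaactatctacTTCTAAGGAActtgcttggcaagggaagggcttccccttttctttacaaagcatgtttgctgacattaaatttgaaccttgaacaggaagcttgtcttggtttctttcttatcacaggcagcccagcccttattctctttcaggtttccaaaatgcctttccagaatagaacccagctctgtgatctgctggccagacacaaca
Sprr2a3: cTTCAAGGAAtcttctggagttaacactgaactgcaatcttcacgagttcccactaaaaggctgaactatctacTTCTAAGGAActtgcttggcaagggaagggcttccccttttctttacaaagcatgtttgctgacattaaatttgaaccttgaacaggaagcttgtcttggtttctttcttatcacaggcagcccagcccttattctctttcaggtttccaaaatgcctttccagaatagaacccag
Chil4: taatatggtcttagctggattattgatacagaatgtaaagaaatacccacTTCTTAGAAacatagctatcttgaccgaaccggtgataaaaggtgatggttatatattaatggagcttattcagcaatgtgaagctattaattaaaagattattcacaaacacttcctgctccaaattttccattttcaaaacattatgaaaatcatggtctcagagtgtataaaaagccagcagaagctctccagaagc
Chil3: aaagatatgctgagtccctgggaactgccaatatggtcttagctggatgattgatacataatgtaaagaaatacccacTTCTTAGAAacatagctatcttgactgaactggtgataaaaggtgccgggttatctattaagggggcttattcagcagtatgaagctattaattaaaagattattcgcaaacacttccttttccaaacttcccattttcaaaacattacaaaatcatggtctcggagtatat
Counting back from the base before the start as position -1, the STAT6 motif began at -204 in Sprr2a2 and at -176 in Sprr2a3, whose gamma-activated match began at -249. The gamma-activated match began at -200 in Chil4 and at -172 in Chil3. Sprr2a2 and Sprr2a3 shared a run of 222 bases, offset by 28, and the window of Sprr2a1 was identical to that of Sprr2a2 over all 250 bases. The longest run shared by Chil3 and Chil4 was 44 bases.

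Rag1, Rag2, Il2rg and Nnt separated the strains in every library. Rag1 and Rag2 encode the recombinase that assembles antigen receptor genes. Rag1 (chromosome 2, 101638282 to 101649501, GRCm38) had 0.0959, 0 and 0.0290 CPM in Tac111 replicates 1, 2 and 3, against 1.57, 1.81 and 1.65 in Tac146 replicates 2, 3 and 4. It was 40.2-fold lower in Tac111 (edgeR adjusted p = 0.00142). Rag2 (chromosome 2, 101624718 to 101632529) had 1.63, 1.69 and 2.17 CPM in the Tac111 libraries and 0 counts in all Tac146 libraries. With 3 counts over the group as the floor, its level in Tac111 was at least 75.4-fold higher (edgeR adjusted p = 0.00109). So each strain held the transcript that the other lacked or nearly lacked. A gene total cannot show which exons its reads cover. B6 had 0.0300 ± 0.0336 CPM of Rag1 and 0 of Rag2 when all 9 libraries were scaled together.

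Il2rg (chromosome X, 101264378 to 101268255) stood at 0.128, 0.108 and 0.116 CPM in Tac111 and at 5.34, 4.01 and 3.65 in Tac146. The highest Tac111 library lay far below the lowest of Tac146 (edgeR log2 change -5.17 with SE 0.30, adjusted p = 8.33e-05). Il2rb, the chain that binds interleukins 2 and 15 together with the common gamma chain, had 0.0320, 0.144 and 0 CPM in Tac111 against 3.02, 3.74 and 4.86 in Tac146 (edgeR log2 change -6.08 with SE 0.54, adjusted p = 9.16e-04). Il7r, the interleukin 7 receptor chain, fell from 2.55 ± 0.510 to 0.357 ± 0.0652 CPM (edgeR log2 change -2.84 with SE 0.27, adjusted p = 0.00138). These were the 3 of 18 tested members of the list of common gamma chain cytokines and receptors that were called (16.7%). All 3 fell, and 3.15% of all genes were called lower. For 2 of the 3, the Tac111 libraries alone did not meet the count filter and those of Tac146 did. These 2 could therefore only be lower in Tac111. The list's median was -0.29. The kinases and STAT proteins below the receptors were not called, with log2 fold changes of -0.34 for Jak1 (edgeR adjusted p = 0.0875), -0.36 for Jak3 (0.328), -0.23 for Stat5a (0.260) and -0.22 for Stat6 (0.152).

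Nnt (chromosome 13, 119335448 to 119408997), a mitochondrial transhydrogenase gene, stood at 99.2 ± 2.56 CPM in Tac111, with a lowest library of 96.3, and at 28.4, 31.0 and 21.2 in Tac146. It was 3.69-fold higher in Tac111 (edgeR log2 change 1.89 with SE 0.14, adjusted p = 3.10e-04), and B6 had 96.1 ± 4.07 CPM on the scale of all 9 libraries. Wdfy1, an endosomal protein gene, was likewise high in Tac111, at 24.2, 25.6 and 22.6 CPM against 4.85, 5.36 and 4.80 (edgeR adjusted p = 3.80e-05). Atp5e, a subunit of the mitochondrial ATP synthase, had 269.6 ± 57.6 against 31.8 ± 3.05 CPM (edgeR log2 change 3.09 with SE 0.17, adjusted p = 7.25e-05). Tmem254a, Tmem254b and Tmem254c, near-identical neighbours on chromosome 14, were all lower in Tac111 with log2 fold changes of -1.87, -1.80 and -1.83. They were chosen after their values were seen, and how reads divide between such copies is uncertain.

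The genes around these loci were counted as well. Within 10 Mb, 2 of 84 tested genes near Rag1 and Rag2 were called (2.38%), 5 of 95 near Il2rg (5.26%) and 2 of 42 near Nnt (4.76%), against 3.92% of all genes. Near Il2rg, Awat2, Dgat2l6 and Awat1 were higher and P2ry4 and P2ry10 lower. Of these, P2ry10, a receptor of lymphocytes, fell from 1.42 ± 0.0910 to 0.344 ± 0.0217 CPM (edgeR adjusted p = 0.00409). Near Rag1 and Rag2 the called pair were Ano3, which was higher, and Creb3l1, which was lower. Near Nnt they were Tmem267, which was higher, and Itga1, which was lower. P2ry4, P2ry10, Ano3, Creb3l1 and Itga1 were chosen after their values were seen. P2ry4 had an edgeR adjusted p of 0.0142, and 0.0628 and 0.0854 without Tac111 replicates 1 and 3. For Creb3l1 it was 0.0474, and 0.0912, 0.123 and 0.140 without Tac111 replicates 1, 2 and 3, 0.0909 and 0.0686 without Tac146 replicates 3 and 4 and 0.0570 with upper-quartile scaling, and for Itga1 0.0381, and 0.0641, 0.113 and 0.0794 without Tac111 replicates 1, 2 and 3, 0.117 and 0.0502 without Tac146 replicates 3 and 4 and 0.0514 with upper-quartile scaling.

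**Figure D2:**
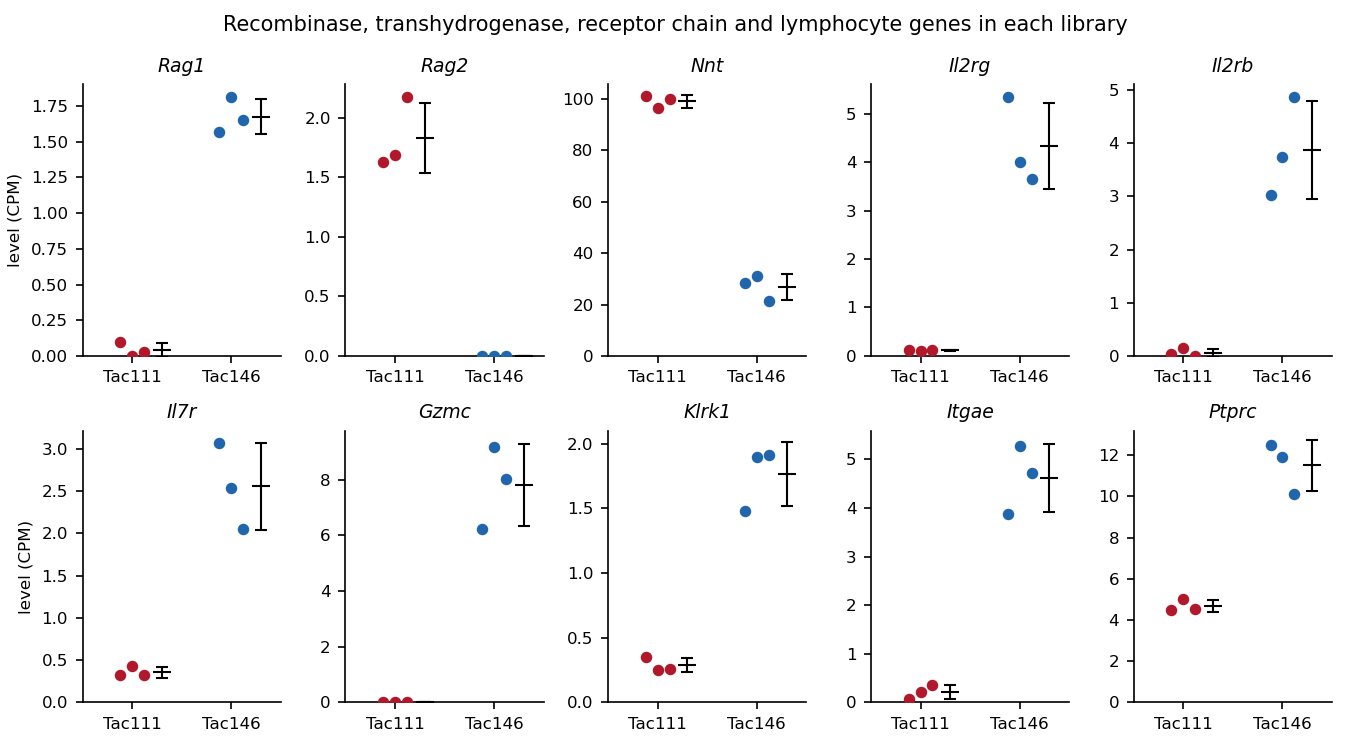
Level in CPM (y axis, linear from 0) of 10 genes in each Tac111 library (red) and Tac146 library (blue), with the mean and SD of 3 libraries as a black bar at the right of each group. Rag2 and Nnt are high in Tac111, and in each of the other 8 panels every Tac111 library lies below every Tac146 library.

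Several transcripts of group 1 innate lymphoid cells and NK cells were at or near 0 in Tac111. Of 30 listed markers, 15 were tested, and 10 of them were lower in Tac111 (66.7%, against 3.15% of all genes called lower). The median log2 change of the 15 was -1.99. For 10 of the 15, the Tac111 libraries alone did not meet the count filter and those of Tac146 did, and 8 of these 10 were among the called. Members that pass in this way had to be higher in Tac146, so the share and the median describe the tested members and not the whole list. Gzmc, a granzyme of cytotoxic lymphocytes, had 6.24, 9.16 and 8.03 CPM in Tac146 and 0 counts in Tac111, at least 244-fold lower (edgeR adjusted p = 1.83e-04). Nkg7, a cytotoxic granule protein, and Xcl1, a chemokine that attracts dendritic cells, were also at 0 in Tac111. They were at least 46.6-fold (edgeR adjusted p = 0.00280) and 40.7-fold (0.00330) lower.

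Among NK receptor genes, some fell and some were not called. Ncr1, which encodes the activating receptor NKp46, had 0 counts in Tac111 and 15, 12 and 21 in Tac146, at least 12.1-fold lower (edgeR adjusted p = 0.0142, and 0.0530 without Tac111 replicate 3). It was chosen after its values were seen. Klrk1, which encodes the activating receptor NKG2D, had 0.352, 0.252 and 0.261 CPM in Tac111 and 1.48, 1.90 and 1.91 in Tac146 (edgeR log2 change -2.60 with SE 0.28, adjusted p = 0.00213). Klrb1b, an inhibitory lectin receptor, stood at 1.02 ± 0.230 and 4.09 ± 0.531 CPM (edgeR log2 change -1.99 with SE 0.22, adjusted p = 0.00276). Klrb1c, which encodes NK1.1, had 3 counts in Tac111 and 86 in Tac146, a ratio of 21.7 (95% exact counting interval 7.19 to 107, edgeR adjusted p = 0.00565). The receptor subunits for interleukin 18, which drives interferon gamma in NK cells, fell as well, Il18rap by 2.90 and Il18r1 by 1.78 on the log2 scale (edgeR adjusted p = 0.00575 and 0.00706). Both were chosen after their values were seen. Klrd1 and Tbx21 were not called, at 0.296 ± 0.202 and 0.646 ± 0.0921 CPM in Tac111 against 0.692 ± 0.0684 and 0.768 ± 0.396 in Tac146. Prf1, Gzma, Gzmb, Cd160 and Ifng had too few counts to be tested, with 0 in Tac111 and 33, 11, 12, 39 and 7 in Tac146. Zero counts over the 3 Tac111 libraries allow up to 0.0321 CPM, counting error only.

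Genes of group 2 and group 3 cells were fewer and mixed. Of 14 tested group 2 markers, 4 were lower (28.6%) and the median was -0.23, or -0.39 without Tac111 replicate 1. Beside Il7r these were Neurl3 (log2 fold change -1.31, edgeR adjusted p = 0.00846), Hpgds, a prostaglandin D synthase (-1.37, 0.0186), and Rora, a transcription factor these cells need (-0.54, 0.0174), a gene that keratinocytes also express. All 3 lost their call without at least 1 library. The edgeR adjusted p of Hpgds was 0.0645, 0.0845 and 0.0819 without Tac111 replicates 1, 2 and 3. That of Rora was 0.0612, 0.0819 and 0.0531 without Tac111 replicates 1, 2 and 3 and 0.0868 without Tac146 replicate 3, and that of Neurl3 0.0527 without Tac111 replicate 2. The count of the list was 2, 1 and 2 without Tac111 replicates 1, 2 and 3, and 4, 3 and 4 without Tac146 replicates 2, 3 and 4. Il1rl1, the interleukin 33 receptor, and Gata3, the factor that specifies group 2 cells, were not called, at 4.37 ± 0.263 and 31.4 ± 3.52 CPM in Tac111 against 4.29 ± 1.30 and 30.3 ± 8.46 in Tac146. Gata3 stood above the leukocyte gene Ptprc, which had 4.68 ± 0.314 CPM in Tac111 and 11.5 ± 1.25 in Tac146. Which cells the Gata3 and Il1rl1 reads came from was not tested. The cytokine Il13 had 0 counts in Tac111 and 5, 11 and 20 in Tac146, too few to be tested, and Il5 had 39 and 31 counts in all (edgeR adjusted p = 0.296).

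Among 5 tested group 3 markers, Cxcr6 and Ltb were lower (40.0%), and neither met the count filter in the Tac111 libraries alone. Ahr, a receptor these cells need, was not called, with a log2 fold change of -0.39. Their cytokine Il22 had 0 counts in Tac111 and 14 in Tac146. Cxcr6, a chemokine receptor of resident lymphocytes, had 8 counts in Tac111 and 126 in Tac146 (edgeR adjusted p = 0.0189, and 0.0807, 0.0560 and 0.112 without Tac111 replicates 1, 2 and 3). Ltb, which encodes lymphotoxin beta, had 8 and 82 counts (edgeR adjusted p = 0.0427). Its adjusted p was 0.0804, 0.0703 and 0.156 without Tac111 replicates 1, 2 and 3, 0.0550 and 0.119 without Tac146 replicates 2 and 3 and 0.0517 with upper-quartile scaling.

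Some genes known for holding lymphocytes in epithelium were lower. Of 19 tested residency genes, 7 were called, all lower (36.8%), and 12 were not. The median was -0.38, or -0.16 without Tac146 replicate 4. For 5 of the 7, the Tac111 libraries alone did not meet the count filter. Itgae, the integrin chain that binds E-cadherin on epithelial cells, had 0.0639, 0.216 and 0.348 CPM in Tac111 and 3.88, 5.27 and 4.71 in Tac146 (edgeR log2 change -4.42 with SE 0.38, adjusted p = 8.16e-04). Its partner chain Itgb7 fell by 1.04 (SE 0.13, edgeR adjusted p = 0.00558). Cdh1, the E-cadherin gene, was not called, at 268 CPM in Tac111 and 350.3 in Tac146. Cd96, a receptor of NK and T cells, had a log2 fold change of -2.97 (edgeR adjusted p = 0.0295, and 0.0923, 0.115 and 0.0794 without Tac111 replicates 1, 2 and 3 and 0.0764 without Tac146 replicate 3). The count of the list was 2 without each Tac111 library, and 6, 3 and 4 without Tac146 replicates 2, 3 and 4.

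Of 29 listed T cell markers, 13 were tested and 3 were lower (23.1%, against 3.15% of all genes), Lck, Zap70 and Trbc1. None of the 3 met the count filter in the Tac111 libraries alone. The median was -0.09, and -0.28 to -0.02 when 1 library was left out. Lck and Zap70 encode kinases that T and NK cells share. The edgeR adjusted p of Lck was 0.0184, and 0.0793, 0.0667 and 0.0961 without Tac111 replicates 1, 2 and 3 and 0.0521 without Tac146 replicate 3. That of Zap70 was 0.0460, and 0.0745, 0.142 and 0.140 without Tac111 replicates 1, 2 and 3, 0.0562, 0.133 and 0.0758 without Tac146 replicates 2, 3 and 4, 0.0535 with upper-quartile scaling and 0.0700 with limma. That of Trbc1 was 0.0402, and 0.114, 0.140 and 0.0526 without Tac111 replicates 1, 2 and 3, 0.0678 and 0.112 without Tac146 replicates 2 and 3 and 0.0514 with upper-quartile scaling. So each of the 3 calls was lost when any Tac111 library was left out. Over all genes the calls fell too, from 641 to 249, 215 and 216 without Tac111 replicates 1, 2 and 3. Thy1 had 44.5 ± 2.13 and 40.4 ± 6.48 CPM. Of 2 tested gamma delta T cell markers, Cd163l1 had 0 and 48 counts (edgeR adjusted p = 0.0172) and Sox13, which epithelium expresses too, was not called. The adjusted p of Cd163l1 was 0.0534, 0.0527 and 0.0636 without Tac111 replicates 1, 2 and 3 and 0.0521 without Tac146 replicate 3. Of 5 tested B and plasma cell genes, Fcer2a was lower (log2 fold change -2.04, edgeR adjusted p = 0.0377), and its adjusted p was 0.110, 0.0548 and 0.120 without Tac111 replicates 1, 2 and 3 and 0.116 without Tac146 replicate 3. Blnk, Ighm and Tnfrsf13c were not called, with log2 fold changes of -0.20, -0.15 and 0.49.

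Part of the genes shared by leukocytes were lower in Tac111. All 24 tested pan-leukocyte genes lay below 0, against 47.9% of all genes. Of these, 9 were called (37.5%, against 3.15% of all genes called lower), with a median of -0.81 over the list. Ptprc stood at 4.48, 5.04 and 4.52 CPM in Tac111 and 12.5, 11.9 and 10.1 in Tac146 (edgeR log2 change -1.29 with SE 0.14, adjusted p = 0.00197). Cytip, an adaptor of leukocyte adhesion, fell by 1.93 (edgeR adjusted p = 0.00420), Ikzf1, a lymphoid transcription factor, by 1.58 (0.00578) and Lcp1, an actin bundling protein, by 1.26 (0.00575). The adjusted p of Lcp1 was 0.0509 without Tac111 replicate 3. The count was 4 without each Tac111 library and without Tac146 replicate 3, and 8 and 12 without Tac146 replicates 2 and 4. The Tac111 libraries alone did not meet the count filter for 1 of the 9. Of 7 tested Gimap genes, which encode small GTPases of lymphocytes, Gimap3 was lower, with 1 count in Tac111 and 75 in Tac146 (edgeR adjusted p = 0.0118, and 0.0628, 0.0532 and 0.0803 without Tac111 replicates 1, 2 and 3). Gimap6, Gimap4 and Gimap9 were not called, with log2 fold changes of -0.38, -0.25 and -0.15.

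The largest falls were in epithelial genes known as targets of interleukins 4 and 13. Of 43 listed type 2 response genes, 31 were tested, 15 were lower (48.4%) and 16 were not called. The median was -1.13, or -0.70 without Tac146 replicate 2. For 9 of the 31, 8 of them called, the Tac111 libraries alone did not meet the count filter. Between 14 and 17 were lower when any library was left out. Sprr2a2 had 5.34, 6.37 and 5.07 CPM in Tac111 against 5994, 5897 and 11384 in Tac146 (edgeR log2 change -10.44 with SE 0.39, adjusted p = 1.26e-05). Chil4 had 1.12, 0.756 and 0.145 CPM in Tac111 against 5104, 5238 and 10464 in Tac146 (edgeR log2 change -13.35 with SE 0.66, adjusted p = 3.80e-05). Tac146 replicate 4 was the highest library for both, and no Tac111 library came near any Tac146 library. On the scale of all 9 libraries, B6 had 1793 ± 451 CPM of Sprr2a2 and 1802 ± 553 of Chil4.

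The Sprr2 family fell almost entirely. Of 13 Sprr2 names, 12 were tested, and 11 were lower. Their summed level was 36.6, 42.9 and 51.7 CPM in Tac111, against 6533, 6494 and 12341 in Tac146. Sprr2a3 fell from 355 ± 141 to 0.159 ± 0.0860 CPM, Sprr2a1 from a mean of 40.7 to 0.139 ± 0.0462, and Sprr2d from 66.6 ± 23.7 to 0.366 ± 0.297. The log2 fold changes of Sprr2b, Sprr2e, Sprr2f and Sprr2i were -7.60, -7.77, -7.00 and -5.87 (edgeR adjusted p up to 9.22e-04). Sprr2k stood apart, at 25.9, 28.5 and 40.6 CPM in Tac111 and 23.5, 31.3 and 24.9 in Tac146, where the strains overlapped (edgeR adjusted p = 0.383). The remaining tested members, Sprr2g, Sprr2h and Sprr2j-ps, fell by 5.59, 3.30 and 3.53. The annotated spans of Sprr2a1 and Sprr2a2 overlap, and copies of Sprr2a are so alike that the division of reads among them is uncertain.

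Among chitinase genes, the split was as sharp. Chil3 fell from 13.6 ± 8.85 to 0.0790 ± 0.0590 CPM (edgeR adjusted p = 0.00144), with its reads uncertain beside those of Chil4. Chil1 had 1.82, 4.11 and 2.52 CPM in Tac111 and 71.1, 106 and 125 in Tac146 (edgeR log2 change -5.17 with SE 0.32, adjusted p = 1.05e-04). Chit1, which encodes an active chitinase, was not called, at 229 ± 28.6 and 247 ± 8.01 CPM.

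Alox15, a lipoxygenase that responds to interleukins 4 and 13, had 3.16, 4.47 and 4.41 CPM in Tac111 and 334, 357 and 533 in Tac146 (edgeR log2 change -6.67 with SE 0.25, adjusted p = 1.26e-05). Its epidermal relative Alox12e, next to it on chromosome 11, fell by 1.90 (SE 0.23, edgeR adjusted p = 0.00362). Gasdermin C genes, which encode pore-forming proteins of epithelium, fell together. Gsdmc stood at 98.4, 101 and 125 CPM in Tac111 and 285, 367 and 508 in Tac146 (edgeR log2 change -1.84 with SE 0.21, adjusted p = 0.00276). Gsdmc2 fell by 4.51 on the log2 scale, to 1.05 ± 0.0566 CPM (edgeR adjusted p = 1.78e-04). The mucus-associated Fcgbp fell by 1.58 (edgeR adjusted p = 0.00144). Ccl22 and Ccl17, chemokines that attract cells carrying Ccr4, fell by 2.05 and 2.96 (edgeR adjusted p = 8.89e-04 and 0.00503). Serpinb3c, a serine protease inhibitor outside the list and chosen after its values were seen, had 6.75 ± 2.23 and 159 ± 77.7 CPM (edgeR adjusted p = 0.00105).

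Several type 2 genes of the same list were not called. Arg1 had 501 ± 55.5 CPM in Tac111 and 457 ± 108 in Tac146, the epithelial alarmins Il33 and Tslp had log2 fold changes of -0.36 and 0.25, and the receptor chains Il4ra and Il13ra1 had -0.50 and -0.44. The edgeR adjusted p of these alarmin and receptor genes ran from 0.0589 for Il13ra1 to 0.745 for Tslp. Retnla, a secreted effector of type 2 responses, fell by 1.13 (edgeR adjusted p = 0.0144, and 0.0671 and 0.0754 without Tac111 replicates 1 and 2).

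**Figure D3:**
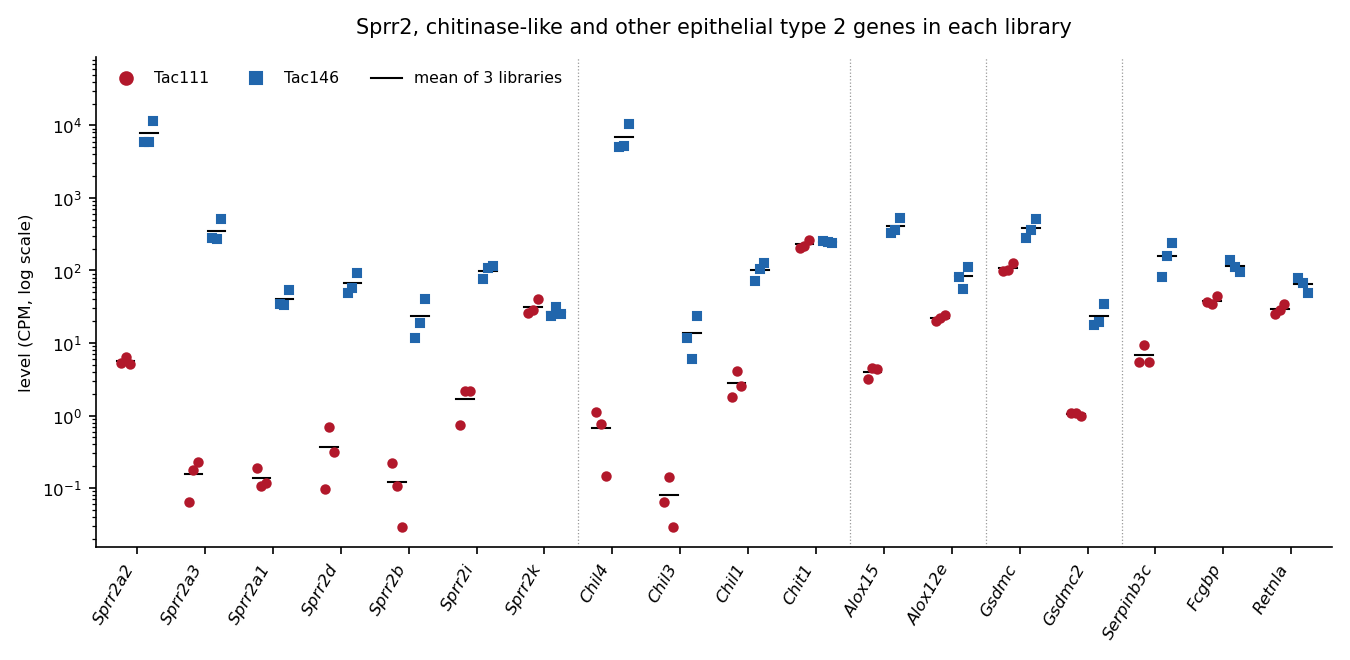
Level in CPM (y axis, log scale) of 18 genes in each Tac111 library (red circles) and Tac146 library (blue squares), with the mean of 3 libraries as a black line. Dotted lines part the Sprr2, chitinase, lipoxygenase and gasdermin groups from the others, and Sprr2k and Chit1 are the 2 genes whose libraries overlap.

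Motif counts give context for the sequences above. Over the 12026 tested genes with a RefSeq promoter, on both strands of the 250 bases before the start, 5.70% held the STAT6 motif, 7.28% TTCNNNGAA and 3.24% the interferon element (GAAA repeated with any 2 bases between). Of the 15 lowered type 2 genes, 12 had a promoter in the table. Of these, 5 held the STAT6 motif (Sprr2a1, Sprr2a2, Sprr2a3, Retnla and Ccl17), 4 held TTCNNNGAA (Chil4, Chil3, Sprr2a3 and Ccl17) and 0 the interferon element. Sprr2a1 and Sprr2a2 have the same sequence there, and Sprr2a3 shares with Sprr2a2 a run of 222 bases that holds the STAT6 motif. The TTCNNNGAA matches of Chil4 and Chil3 lie in the 44 bases that these genes share. So the STAT6 matches of the Sprr2a genes are not separate cases, and neither are the matches of Chil4 and Chil3. Of the 20 lowered interferon gamma genes, 15 had a promoter, of which 9 held the interferon element, 8 TTCNNNGAA and 0 the STAT6 motif. Among all genes called lower, the shares were 8.49% for the STAT6 motif, 12.2% for TTCNNNGAA and 7.69% for the interferon element, over 377 promoters. A match is a description of letters, not of a bound site.

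Of 33 tested interferon gamma response genes, 20 were lower in Tac111 (60.6%), 13 were not called, and the median was -0.91. Without Tac111 replicates 1, 2 and 3 the number was 10, 12 and 9, and without Tac146 replicates 2, 3 and 4 it was 16, 14 and 17. The Tac111 libraries alone did not meet the count filter for 4 of the 20. Nlrc5, the transactivator of class I genes, had 4.44 ± 0.491 CPM in Tac111 and 20.4 ± 1.61 in Tac146 (edgeR log2 change -2.20 with SE 0.13, adjusted p = 8.33e-05). Cxcl10, a chemokine for Cxcr3-bearing lymphocytes, fell from 1.72 ± 0.281 to 0.180 ± 0.103 CPM (edgeR log2 change -3.23 with SE 0.40, adjusted p = 0.00410). The GTPase genes Iigp1 and Irgm2, known for defence against intracellular microbes, fell by 1.52 and 0.91 (edgeR adjusted p = 0.00213 and 0.00610). Irf1 and Cd274 were not called, with log2 fold changes of -0.44 each (edgeR adjusted p = 0.0767 and 0.145).

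The upstream bases of 3 of the lowered genes are shown because the lowered interferon gamma genes often held these elements. B2m is instead from the list of class I antigen presentation genes. There, of 11 promoters of lowered genes, 2 held the interferon element and 1 TTCNNNGAA. The windows of Cxcl9, Psmb9, Tap1, H2-K1, H2-D1 and H2-Q4, which were also lowered, held neither. Capitals mark the interferon element in Cxcl10 (chr5:92348890-92349139, minus strand, beginning at -213) and B2m (chr2:122147437-122147686, plus, at -139). In Psmb8 (chr17:34197945-34198194, plus) they mark TTCNNNGAA at -97. The sequences are from RefSeq, GRCm38.p6, and the genes were chosen after their values were seen.
Cxcl10: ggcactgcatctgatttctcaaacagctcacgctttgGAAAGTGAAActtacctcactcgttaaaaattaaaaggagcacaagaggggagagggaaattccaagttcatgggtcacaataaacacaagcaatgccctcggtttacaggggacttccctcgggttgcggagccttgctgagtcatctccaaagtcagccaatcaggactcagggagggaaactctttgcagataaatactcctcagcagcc
B2m: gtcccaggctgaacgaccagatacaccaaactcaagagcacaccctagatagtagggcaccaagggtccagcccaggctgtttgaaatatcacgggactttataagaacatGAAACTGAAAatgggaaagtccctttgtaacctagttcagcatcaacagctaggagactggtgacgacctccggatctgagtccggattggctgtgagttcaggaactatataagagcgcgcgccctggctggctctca
Psmb8: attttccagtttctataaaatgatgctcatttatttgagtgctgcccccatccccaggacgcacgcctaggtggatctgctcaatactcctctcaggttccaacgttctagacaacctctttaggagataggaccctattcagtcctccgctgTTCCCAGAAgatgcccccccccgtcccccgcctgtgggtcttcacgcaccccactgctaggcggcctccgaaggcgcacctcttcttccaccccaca

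Type I interferon response genes moved less evenly. Of 58 tested genes, 17 were lower (29.3%), with a median of -0.57. The number was 4, 2 and 2 without Tac111 replicates 1, 2 and 3, and 18, 10 and 15 without Tac146 replicates 2, 3 and 4. The Tac111 libraries alone did not meet the count filter for 2 of the 17. Parp14 and Irf9, an interferon-induced enzyme and a partner of STAT proteins, each fell by 0.94 (edgeR adjusted p = 0.00387 and 0.00605). Rsad2, which encodes viperin, fell by 1.76 (edgeR adjusted p = 0.0113, and 0.0592, 0.0527 and 0.0577 without Tac111 replicates 1, 2 and 3). Usp18, a brake on interferon signalling, had a log2 fold change of -1.17 (edgeR adjusted p = 0.0164, and 0.0696, 0.0815 and 0.0526 without Tac111 replicates 1, 2 and 3 and 0.0566 in the fit of all 9 libraries). Ifit1 and Ifit2, of a family that binds viral RNA, were not called, at -1.17 and -0.24 (edgeR adjusted p = 0.0724 and 0.396). Ifit1 was called by DESeq2 (adjusted p = 0.00505), and by edgeR with no filter on low counts (0.00678), with the replicate block (5.58e-04) and without Tac146 replicate 3 (0.0391).

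The class I antigen presentation pathway fell at several steps. Of 25 tested genes, 12 were lower (48.0%), the median was -0.45, and 10 to 12 were lower when any library was left out. B2m, the light chain of every class I molecule, stood at 104, 117 and 125 CPM in Tac111 and 279, 276 and 261 in Tac146 (edgeR log2 change -1.24 with SE 0.10, adjusted p = 5.94e-04). The heavy chains H2-K1, H2-D1 and H2-Q4 fell by 1.08, 0.81 and 1.24 (edgeR adjusted p = 0.00194, 0.00570 and 2.57e-04). H2-Q6 fell by 1.92 (edgeR adjusted p = 8.89e-04), with reads it may share with H2-Q7. Tap1, the peptide transporter, fell by 0.70 (edgeR adjusted p = 0.00575), and the immunoproteasome subunits Psmb8 and Psmb9 by 1.14 and 1.03 (0.00180 and 0.00798). The loading chaperones Calr, Canx and Pdia3 were not called. B6 had 333 ± 31.8 CPM of B2m on the scale of all 9 libraries.

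Of 15 tested class II genes, which dendritic cells and macrophages use to present antigen, 8 were lower (53.3%) and 7 were not called, with a median of -1.22. The number was 5, 5 and 7 without Tac111 replicates 1, 2 and 3, and 8, 7 and 9 without Tac146 replicates 2, 3 and 4. H2-Aa had 49.3, 50.3 and 65.8 CPM in Tac111 and 153, 135 and 107 in Tac146 (edgeR log2 change -1.26 with SE 0.16, adjusted p = 0.00556). H2-Eb1 fell by 1.28, H2-DMb2 by 2.06 and their transactivator Ciita by 1.68 (edgeR adjusted p = 0.00637, 0.00291 and 0.00362). Transcripts that mark cells carrying class II were lower too. Itgax, which encodes the dendritic cell integrin CD11c, had 1.60, 1.33 and 1.45 CPM in Tac111 and 6.29, 7.02 and 6.60 in Tac146 (edgeR log2 change -2.18 with SE 0.16, adjusted p = 2.57e-04). Cd207, the langerin gene of Langerhans cells, had 1.18, 1.48 and 2.09 against 8.49, 8.64 and 7.79 (edgeR log2 change -2.38 with SE 0.21, adjusted p = 8.89e-04). The part of such cells in the class II result was not tested.

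Of 17 tested dendritic and Langerhans cell genes, 6 were lower (35.3%), with a median of -0.78. The number was 4 without each Tac111 library, 5 without Tac146 replicate 2 or 3 and 10 without Tac146 replicate 4. For 2 of the 6, the Tac111 libraries alone did not meet the count filter. Of 22 macrophage genes 1 was lower (4.55%, near the 3.15% of all genes). The median was -0.23, or -0.06 and -0.45 without Tac146 replicates 2 and 4. Lyz2, the lysozyme gene, had 99.1 CPM in Tac111 against 114 in Tac146. Csf1r had 23.9 and 40.2 CPM (edgeR adjusted p = 0.0792). The 1 called gene was Il34, a ligand of the same receptor that epithelium makes (log2 fold change -0.63, edgeR adjusted p = 0.0317). Its adjusted p was 0.0849 and 0.126 without Tac111 replicates 1 and 2, 0.110 without Tac146 replicate 3 and 0.0512 with upper-quartile scaling. The macrophage count was 7 without Tac146 replicate 4. Of 35 tested chemokines and receptors, 9 were lower (25.7%, against 3.15% of all genes), with a median of -0.60. That count was 5 without each Tac111 library and 9, 8 and 13 without Tac146 replicates 2, 3 and 4. For 8 of the 35, 6 of them called, the Tac111 libraries alone did not meet the count filter and those of Tac146 did. Such members could only be lower in Tac111.

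Neutrophil-associated and antimicrobial transcripts varied widely within Tac146. S100a9, a subunit of calprotectin, had 1.53 ± 0.589 CPM in Tac111 and 49.7 ± 39.3 in Tac146, where replicate 4 reached 94.2 (edgeR log2 change -5.01 with SE 0.63, adjusted p = 0.00438). Its partner S100a8 stood at 3.05 ± 0.270 and 30.2 ± 25.9 CPM (edgeR adjusted p = 0.0205, and 0.0839, 0.0907 and 0.116 without Tac111 replicates 1, 2 and 3). Both were highest in Tac146 replicate 4, and no libraries overlapped. Saa1, an acute phase protein, had 0.0639, 0.252 and 0.116 CPM against 3.91, 6.31 and 4.91 (edgeR log2 change -5.13 with SE 0.38, adjusted p = 3.10e-04). Nfkbiz and Zc3h12a, regulators induced by interleukin 17 and other signals, fell by 1.44 and 1.26 (edgeR adjusted p = 0.00111 and 0.00194).

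Of 25 tested antimicrobial and interleukin 17 response genes, 6 were lower (24%, against 3.15% of all genes), with a median of -0.58. That number was 4 without each Tac111 library and 10, 5 and 7 without Tac146 replicates 2, 3 and 4. The Tac111 libraries alone did not meet the count filter for 1 of the 6. Of 9 neutrophil markers, 3 were lower (33.3%), S100a8, S100a9 and Mmp9 (log2 fold change -1.55, edgeR adjusted p = 0.0109), and the list's median was -1.13, or -0.63 without Tac146 replicate 4. Mmp9, a matrix protease, had an adjusted p of 0.0598 and 0.0629 without Tac111 replicates 1 and 3. The neutrophil count was 1, 2 and 1 without Tac111 replicates 1, 2 and 3. Ly6g, a defining neutrophil marker, had 0 counts in all 6 libraries, and Ltf had 14.6 and 16.1 CPM. Mast cell, basophil and eosinophil genes had a median of 0.45, with 1 of 15 called (6.67%, against 3.92% of all genes). Without Tac146 replicates 2 and 4 the median was 0.71 and 0.12. The mast cell proteases Mcpt4, Cma1 and Cpa3 had log2 fold changes of 0.42, 0.52 and 0.48 and were not called. They were lowest in Tac146 replicate 4, where Mcpt4 had 19.4 CPM against 65.2 and 52.7 in replicates 2 and 3. Ear2, an eosinophil-associated ribonuclease, was lower (-1.93, edgeR adjusted p = 0.00826, and 0.0534 and 0.0651 without Tac111 replicates 1 and 3).

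**Figure D4:**
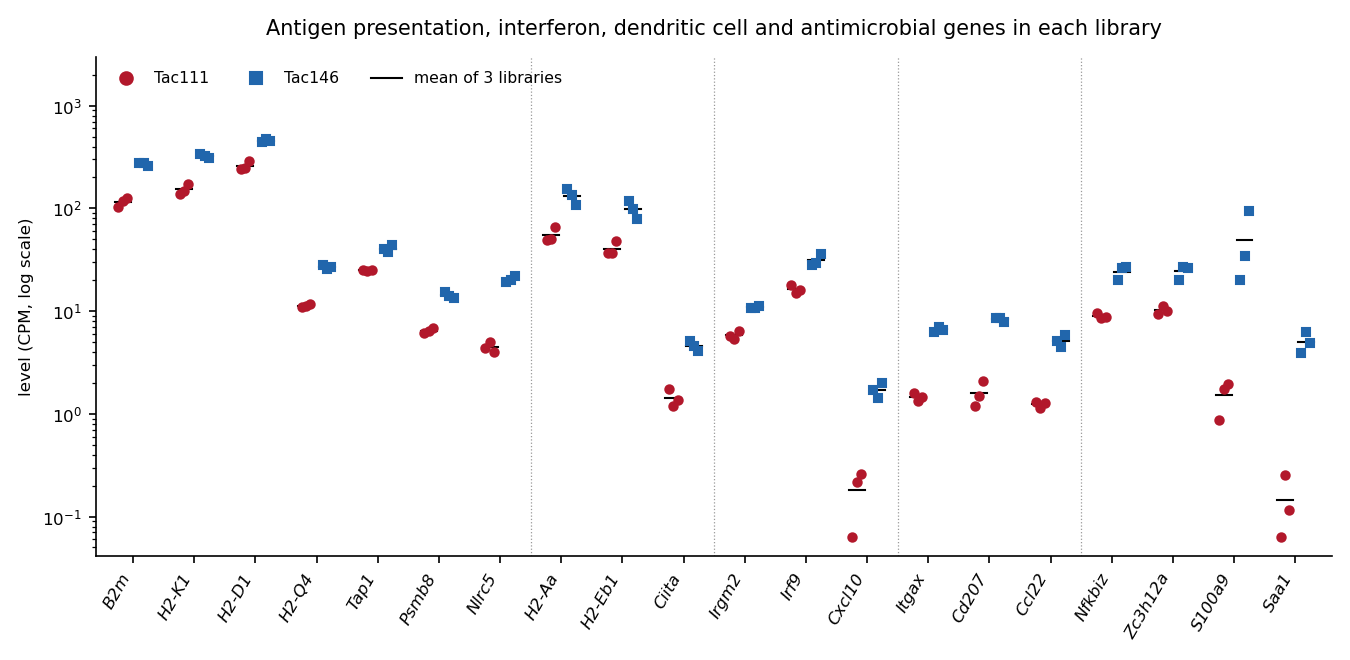
Level in CPM (y axis, log scale) of 20 genes in each Tac111 library (red circles) and Tac146 library (blue squares), with the mean of 3 libraries as a black line. Dotted lines part class I, class II, interferon, dendritic cell and antimicrobial genes, and for every gene drawn the Tac111 libraries lie below the Tac146 libraries.

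Secretory genes went both ways. Aqp5, a water channel of salivary and sweat gland cells, had 16.4, 19.3 and 27.5 CPM in Tac111 and 1.39, 1.01 and 2.29 in Tac146. Among named genes averaging at least 5 CPM in either strain, its rise was the largest (edgeR log2 change 3.73 with SE 0.30, adjusted p = 5.94e-04). Lpo, the antibacterial lactoperoxidase, went the other way, with 0.128, 0.108 and 0.290 against 5.16, 6.56 and 8.54 CPM (edgeR log2 change -5.20 with SE 0.36, adjusted p = 1.78e-04). Of 13 tested gland genes, 2 were higher and 3 lower (38.5% in either direction), with a median of -0.14, and of -0.35 to 0.00 when 1 library was left out. Scgb1a1, a secretoglobin, was higher at 203 ± 87.8 against 73.9 ± 22.7 CPM (edgeR adjusted p = 0.0410), and Spdef, a factor of mucous cells, was lower (log2 fold change -1.47, edgeR adjusted p = 0.0144). The adjusted p of Scgb1a1 was 0.0628, 0.0754 and 0.106 without Tac111 replicates 1, 2 and 3 and 0.0644 and 0.0548 without Tac146 replicates 2 and 4. That of Spdef was 0.0509, 0.0535 and 0.0559 without Tac111 replicates 1, 2 and 3 and 0.0522 without Tac146 replicate 3. The list had 1 higher and 1 or 2 lower without each Tac111 library. For 2 of the 3 lower genes, the Tac111 libraries alone did not meet the count filter. Bpifa5, a secreted lipid-binding protein, was lower in Tac111, at 0.111 ± 0.0625 against 6.33 ± 5.89 CPM (edgeR adjusted p = 0.0111, and 0.0636 and 0.0936 without Tac111 replicates 1 and 3). Muc5b, a gel-forming mucin, had 1 and 5 counts.

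Keratinocyte genes were called by edgeR only on the list of differentiated ones. EdgeR called 0 of 17 basal keratinocyte genes, DESeq2 3 and limma 0, while 6 had p under 0.05 before adjustment. Krt5 had 4084 and 3832 CPM and Krt14 3516 and 3040.4, with log2 fold changes of 0.09 and 0.21, and Krt15 and Col17a1 had -0.07 and -0.39. Of 46 differentiated keratinocyte genes, 1 was higher and 2 lower (6.52% in either direction, against 3.92% of all genes). Krt2, a keratin of the upper epidermis, had 1137, 862 and 844 CPM in Tac111 and 259, 117 and 250.1 in Tac146 (edgeR log2 change 2.18 with SE 0.29, adjusted p = 0.00575). Dsg3, a desmosomal cadherin, had a log2 fold change of -0.87 (edgeR adjusted p = 0.0261, and 0.0843, 0.0806 and 0.111 without Tac111 replicates 1, 2 and 3 and 0.0894 without Tac146 replicate 3). Krt13 stood at 31434 and 38496 CPM and was not called. The number lower was 1 without each Tac111 library and without Tac146 replicate 3, and 9 without Tac146 replicate 2.

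Some sebaceous lipid genes were called. Of 41 tested hair follicle and sebaceous gland genes, 3 were higher and 1 lower (9.76% in either direction, against 3.92% of all genes). The median was 0.58, or 0.29 without Tac146 replicate 3. Awat1 and Awat2 encode wax synthases of sebaceous cells. Awat1 had 60.7, 109 and 69.0 CPM in Tac111 and 38.8, 16.8 and 28.3 in Tac146 (log2 fold change 1.51, edgeR adjusted p = 0.0377), and Awat2 rose by 1.69 (0.0180). Their relative Dgat2l6, next to them on chromosome X, rose by 1.59 (edgeR adjusted p = 0.0110), and Scd3, a fatty acid desaturase, by 1.37 (0.0329). Elovl5, a fatty acid elongase of many tissues, fell by 0.67 (edgeR adjusted p = 0.0109). These calls were not stable to leaving out a library. The edgeR adjusted p of Awat1 was 0.0645, 0.116 and 0.114 without Tac111 replicates 1, 2 and 3 and 0.0679 without Tac146 replicate 3. For Awat2 it was 0.0527 and 0.0840 without Tac111 replicates 2 and 3 and 0.0600 without Tac146 replicate 3, and for Dgat2l6 0.0635 without Tac111 replicate 3. For Scd3 it was 0.0920, 0.115 and 0.0897 without Tac111 replicates 1, 2 and 3 and 0.0506 and 0.101 without Tac146 replicates 2 and 3, and for Elovl5 0.0628 and 0.0566 without Tac111 replicates 1 and 3 and 0.0512 without Tac146 replicate 3. The number higher was 1, 0 and 0 without Tac111 replicates 1, 2 and 3, and 5, 0 and 12 without Tac146 replicates 2, 3 and 4. Hair keratins Krt25, Krt27 and Krt71 took 0.152 to 0.287% of the counts in Tac111 and 0.0596 to 0.233% in Tac146, and their part in these values was not tested.

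Other genes higher in Tac111 belonged to no list. Pctp, a phosphatidylcholine transfer protein, had 24.4 ± 7.43 and 6.19 ± 1.48 CPM (log2 fold change 1.97, edgeR adjusted p = 0.00420), and Ccer2 had 31.6 ± 8.93 and 9.88 ± 1.78 (1.68, 0.00575). Hist1h4i, a histone H4 gene, had a log2 fold change of 1.54 (edgeR adjusted p = 0.00699). Raver2, Car1 and Tmem267 also rose, by 1.61, 1.49 and 1.44 (edgeR adjusted p = 0.0144, 0.0205 and 0.0251). Each lost its call without Tac111 replicate 3. The adjusted p was 0.0660 and 0.0748 without Tac111 replicates 2 and 3 for Raver2, 0.0570 without Tac111 replicate 3 for Car1, and 0.0855 and 0.117 without Tac111 replicates 1 and 3 and 0.0868 without Tac146 replicate 3 for Tmem267. Tmem267 lies 0.15 Mb from Nnt and had 5.06 ± 0.109 CPM in B6 on the scale of all 9 libraries, near the 6.18 ± 1.84 of Tac146.

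Some vessel genes were lower in Tac111. Of 32 tested endothelial and lymphatic genes, 6 were lower (18.8%, against 3.15% of all genes) and 26 were not called. The median was -0.34, and 26 lay below 0, against 47.9% of all genes. Flt1 and Kdr encode receptors for vascular endothelial growth factor. Flt1 had 12.1, 13.3 and 12.2 CPM in Tac111 and 22.4, 30.0 and 26.8 in Tac146 (edgeR log2 change -1.08 with SE 0.12, adjusted p = 0.00295), and Kdr fell by 0.79 (0.00384). Cdh5, the cadherin of endothelial junctions, fell by 1.07 (edgeR adjusted p = 0.00330), and Pecam1 by 0.63 (0.0101, and 0.0667 without Tac111 replicate 2). The count was 5, 3 and 4 without Tac111 replicates 1, 2 and 3, and 6, 4 and 8 without Tac146 replicates 2, 3 and 4. Of 31 fibroblast and matrix genes, Myh11, a smooth muscle myosin, fell by 0.89 (edgeR adjusted p = 0.00617). Rgs5, a pericyte gene, fell by 0.59 (edgeR adjusted p = 0.0449). Its adjusted p was 0.0567 to 0.151 when Tac111 replicate 1, 2 or 3 or Tac146 replicate 2 or 3 was left out. Col3a1 and Dcn were not called, at 0.44 and 0.14, and the median was 0.07, and -0.05 to 0.24 when 1 library was left out.

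The remaining tissues showed few calls. EdgeR called 0 of 33 skeletal muscle genes, DESeq2 11 and limma 0, while 14 had p under 0.05 before adjustment. The median was 0.33, or 0.21 without Tac146 replicate 4, and the libraries did not overlap for 18, all higher in Tac111, against 17.2% of all genes. Acta1 had 7131 and 5433 CPM, and Atp2a1, Myh4 and Myh1 had log2 fold changes of 0.17, 0.30 and 0.14. The share of Acta1, Ckm and Myh4 was lowest in Tac146 replicate 4. EdgeR called 0 of 13 mitochondrial transcripts, DESeq2 1 and limma 0, while 3 had p under 0.05 before adjustment. For mt-Co1, mt-Cytb, mt-Nd4 and mt-Nd1 the log2 fold changes were 0.34, 0.27, 0.05 and 0.16. EdgeR called 0 of 19 melanocyte and Schwann cell genes, DESeq2 4 and limma 0, while 7 had p under 0.05 before adjustment. The myelin genes Mbp, Pmp22 and Prx had -0.60, -0.33 and -0.41.

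The further lists had 0 to 3 genes called by edgeR. EdgeR called 0 of 30 proliferation genes, as did DESeq2 and limma (0 each), while 1 had p under 0.05 before adjustment, and Pcna, Mki67, Rrm1 and Mcm6 had log2 fold changes of 0.19, -0.39, 0.04 and 0.29. It called 0 of 9 erythroid genes, DESeq2 1 and limma 0, while 1 had p under 0.05 before adjustment, and Hbb-bs, Hba-a2, Hba-a1 and Fech had 0.38, 0.28, 0.68 and 0.06. It called 0 of 18 complement genes, as did DESeq2 and limma (0 each), while 2 had p under 0.05 before adjustment, and C3, Serping1, C1s1 and Cfd had -0.34, 0.14, 0.09 and -0.28. It called 0 of 18 clock genes, DESeq2 3 and limma 0, while 3 had p under 0.05 before adjustment, and Tef, Bhlhe40, Nr1d1 and Nr1d2 had 0.31, -0.20, -0.14 and 0.19. Of 16 adipocyte genes, 1 was called (6.25%, against 3.92% of all genes). Lipe, a lipase, was lower (-0.42, edgeR adjusted p = 0.0373), while Lpl, Acsl1 and Slc2a4 had 0.16, -0.21 and 0.34. Of 29 immediate early and stress genes, 3 were called (10.3%, against 3.92% of all genes). Of the 29, 24 lay below 0, against 47.9% of all genes. Klf6, Klf4 and Dusp1 were lower (-0.59, -0.47 and -0.51, edgeR adjusted p = 0.0191, 0.0374 and 0.0499), and Hspa5 had -0.28. These 3 and Lipe lost their calls without several libraries. The adjusted p was 0.0798, 0.0697 and 0.0745 without Tac111 replicates 1, 2 and 3 and 0.0868 without Tac146 replicate 3 for Klf6, 0.104, 0.140 and 0.0631 without Tac111 replicates 1, 2 and 3, 0.114 and 0.0556 without Tac146 replicates 3 and 4 and 0.0521 with upper-quartile scaling for Klf4, 0.0923, 0.137 and 0.135 without Tac111 replicates 1, 2 and 3, 0.156 and 0.0662 without Tac146 replicates 3 and 4, 0.0668 with upper-quartile scaling and 0.0531 with the filter of 1 CPM for Dusp1, and 0.0553 to 0.144 when Tac111 replicate 1, 2 or 3 or Tac146 replicate 3 or 4 was left out for Lipe.

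**Figure D5:**
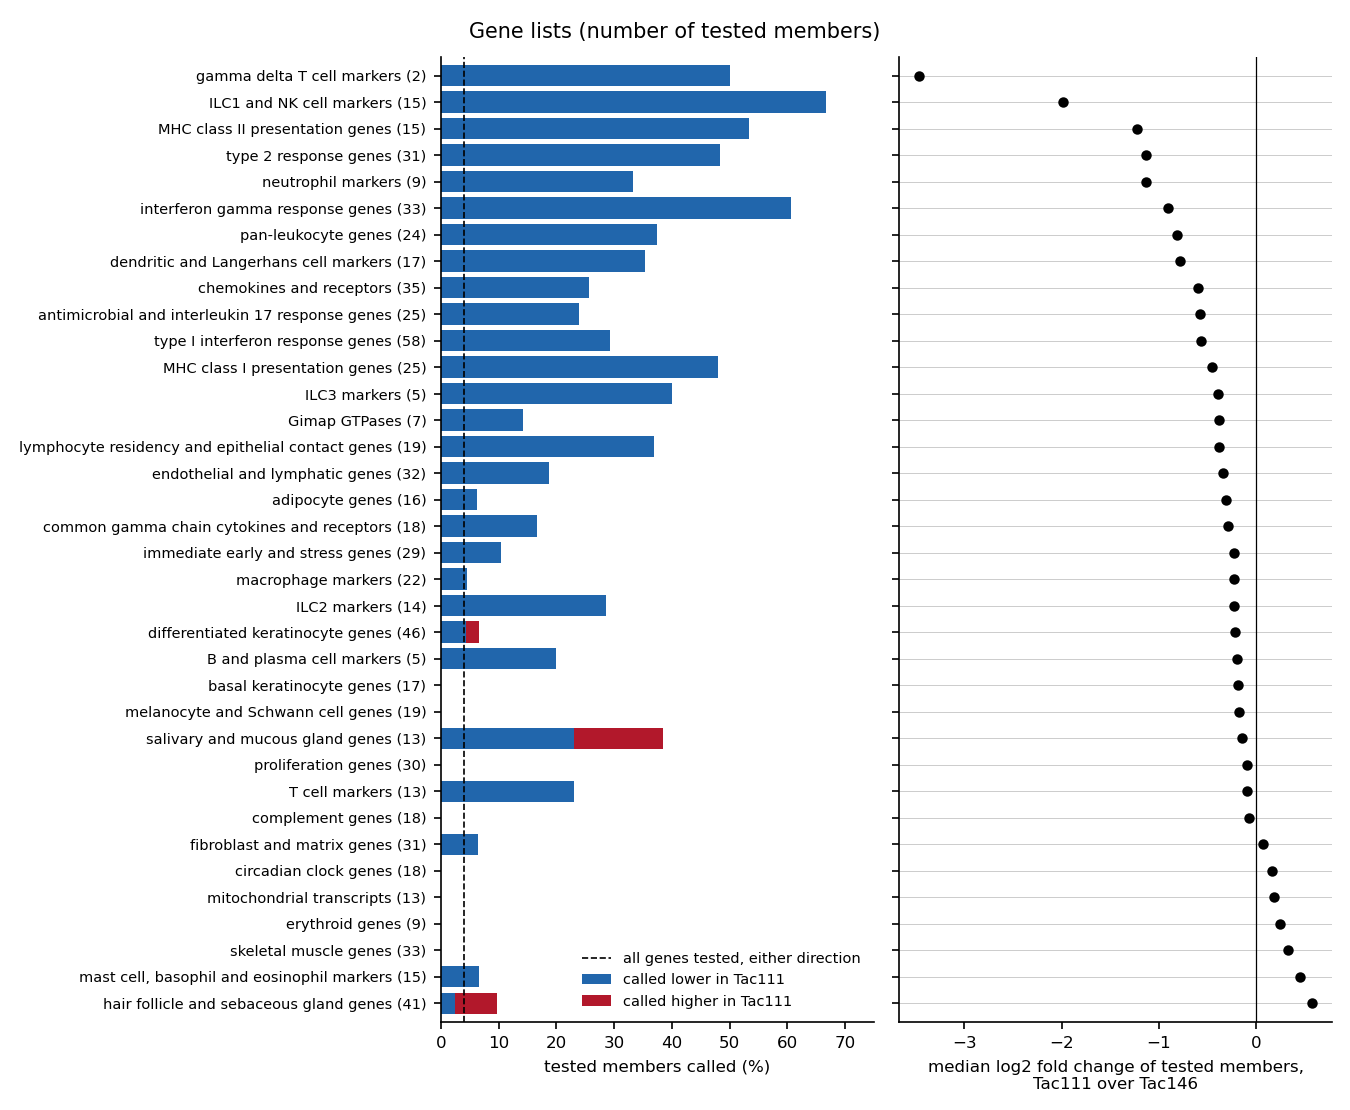
For each of the 36 gene lists, with the number of tested members in parentheses, the left panel gives the percentage of tested members called lower (blue) or higher (red) in Tac111, and the right panel their median log2 fold change of Tac111 over Tac146. The dashed line marks the 3.92% of all genes tested that were called. The NK cell, interferon, type 2 and class II lists stand on the lower side. The hair and sebaceous list has a median of 0.58, the highest with all 6 libraries but not without Tac146 replicate 2 or 3, where the mast cell list is higher, at 0.71 and 0.58 against 0.63 and 0.29.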

How the data were processed

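RNA from labial mucosa biopsies had been sequenced from poly(A) libraries made with a stranded kit, per the labels' protocols. Reads were processed with STAR and RSEM on GRCm38, per the submitters' processing notes, and the authors deposited 1 table of RSEM expected counts per library. The tool versions and the strand setting are not stated there. Expected counts were rounded to whole numbers, and library totals were 27192359 to 46456500. Of 55342 names, 55291 matched a GENCODE vM21 position.

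Only the 6 libraries compared entered the fit. Genes passing filterByExpr were scaled by TMM and tested with edgeR 4.0.16 (quasi-likelihood, two-sided, Benjamini-Hochberg over all 16334 genes, called at an adjusted p under 0.05) in R 4.3.3. CPM is the count scaled to library size with TMM factors (edgeR's cpm function), given as mean ± SD of 3 libraries. The test was checked on simulated data. Alternatives were other scalings and filters, all 9 libraries, the replicate block, each library left out, DESeq2 1.42.0 and limma 3.58.1 on log2(CPM + 1). A gene at 0 was bounded with 3 counts over the strain. Intervals and floors cover counting error only.

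Named genes were Rag1, Rag2, Il2rg and Nnt, then the 15 largest rises and the 15 largest falls among called genes with a mean of at least 5 CPM in the higher strain and no overlap. Antigen receptor segments, pseudogenes, predicted loci and genes of the mitochondrial genome were not eligible there. From each of 36 lists came up to 4 called members with the smallest adjusted p, filled up to 4 by the most abundant members. A few genes that the rule names are not reported here. Genes outside this rule were chosen after their values were seen. The comparison and the lists were chosen with earlier results of these data known, so the lists' directions are not independent evidence. Promoter windows are from RefSeq (GRCm38.p6).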

Additional observations from a re-analysis of the deposited data

How the results depend on the processing

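The number of called genes depended on the processing. Of the 98 called genes named by the rule, 61 were called under all 15 alternatives and 0 changed sign under any. These genes were picked because they were called in the same 6 libraries, so a change of sign was unlikely from the outset. Beside 641 genes called (127 higher, 514 lower), 1676 (401, 1275) were called with no filter on low counts, 1469 (433, 1036) in the fit of all 9 libraries and 1788 (520, 1268) with DESeq2. With upper-quartile scaling 493 were called (130, 363), and the median of all genes was 0.07. Leaving out 1 library gave 215 to 945 called, 42 to 201 higher and 168 to 755 lower, fewest without Tac111 replicate 2 or 3. The cause of these differences was not tested.

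Replicate numbers 2 and 3 occur in both strains, but nothing ties equal numbers together. Deviations from the strain means correlated at -0.07 and 0.21 for equal numbers and at -0.30 to 0.19 for the others. With the replicate number as a block, 1937 genes were called (691 higher, 1246 lower). Within 5 Mb, 0% of tested genes near Rag1 and Rag2 and 9.52% near Nnt were called, and within 20 Mb 3.73% near Rag1 and Rag2.

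Some genes that were not called passed in other settings. DESeq2 called Il13ra1 (adjusted p = 0.00630), Csf1r (0.00591), Irf1 (0.0366), Jak1 (0.0289), Cdh1 (0.0329), Col17a1 (0.0190) and Mbp (0.00169), among others. Il4ra was called by edgeR with no filter on low counts (adjusted p = 0.0380). Genes that were not called and lay near 0 changed sign. Without 1 library each, the log2 fold change was -0.18 to 0.04 for Sox13, -0.38 to 0.01 for Ltf, -0.19 to 0.05 for Krt15, -0.10 to 0.32 for Dcn, -0.02 to 0.30 for Atp2a1, -0.57 to 0.02 for Mki67, -0.03 to 0.12 for Rrm1, -0.31 to 0.01 for Nr1d1, -0.07 to 0.16 for mt-Nd4, -0.06 to 0.26 for Serping1, -0.10 to 0.23 for C1s1, -0.05 to 0.26 for Arg1, -0.08 to 0.31 for Gata3, -0.19 to 0.24 for Il1rl1, -0.42 to 0.26 for Tbx21 and -0.09 to 0.61 for Tslp. With the replicate block it was 0.02 for Ltf, -0.08 for Dcn, -0.07 for Atp2a1, -0.04 for Myh1, -0.00 for Fech, -0.01 for Rrm1, -0.10 for mt-Nd4, -0.07 for Serping1, -0.10 for C1s1, -0.19 for Il1rl1 and -0.36 for Tslp. In the self-test on simulated counts for this comparison, 200 of 16334 genes were changed, all drawn from genes averaging over 1 CPM. Recovery was 20% for changes of 1.5-fold, 82% for 2-fold, 98% for 4-fold and 100% for 8-fold, with 9 false calls. So smaller changes may be missed, and recovery for genes at lower levels was not tested.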
